A study of Mus musculus with 4 samples.

Results

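Transcripts of 10 genes of the contractile apparatus of smooth muscle and myoepithelial cells were followed in clones of Deaf-1-null mammary epithelial cells. The genes were Acta2, Actg2, Myh11, Cnn1, Tagln, Lmod1, Des, Smtn, Myocd and Cald1, and their members on the array were all probe sets whose only gene symbol was one of these names. They gave 19 probe sets among 45037 (10 of 18193 genes), and for each gene the probe set with the highest mean over the arrays leads the account. The leading probe set was chosen by its mean level over the 4 arrays. The list itself was proposed with earlier results of these arrays known, differences between the clones included, so those differences are given as a description, without a test. The cells came from mammary glands of 8 week-old female Deaf-1-/- mice, per the methods of the study, while its results speak of a single mouse. They were immortalised with a retrovirus encoding the E6/E7 proteins of human papilloma virus, and 2 independent clones, C1 and E1, were kept. Each clone received either the empty (control) retrovirus or the one carrying Deaf-1, followed by 48 hours of puromycin selection. Every array therefore read Deaf-1-null, E6/E7-immortalised cells, and each retrovirus was read on 1 array per clone. A clone is 1 cell line, so a difference between C1 and E1 is a difference between a pair of lines and carries no spread between mice.

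Smooth muscle cells and mammary myoepithelial cells shorten by sliding smooth muscle myosin along thin filaments of actin. The filaments carry calponin, caldesmon and tropomyosin, are nucleated by leiomodin, and are anchored through smoothelin and desmin filaments. Most of these genes are activated by serum response factor (SRF) bound to a DNA element called the CArG box, with myocardin or its relatives as coactivators. Myoepithelial cells form the basal layer of the mammary duct and eject milk by contraction, and activated fibroblasts use part of the same gene set.

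Values are RMA expression on a log2 scale, on which a step of 1 is a 2-fold difference, and arrays are given in the order control C1, Deaf-1 C1, control E1 and Deaf-1 E1. A background level of 3.83 was taken from 44 olfactory receptor probe sets, as the 95th percentile of their means. The Deaf1 probe set (1448446_at) read 5.01, 6.73, 4.91 and 6.25, so that the arrays labelled Deaf-1 exceeded both others. With the control retrovirus it was still 2.27-fold (C1) and 2.11-fold (E1) over the background level, though the cells were Deaf-1-null. The reason was not tested, so a value not far above that level is weak evidence of a transcript. Array medians ran from 3.77 to 3.87, and between 49.2% and 50.8% of probe sets lay above background. Of the contractile genes, 7 lay above background on all 4 arrays (Acta2, Cnn1, Tagln, Lmod1, Des, Smtn and Cald1). Actg2 did so in clone C1 alone, and Myh11 and Myocd on no array. For all probe sets, the share above background on all 4 arrays was 45.7%. At 1 probe set per gene, as for the members, it was 11005 of 18193 genes.

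**Figure D1:**
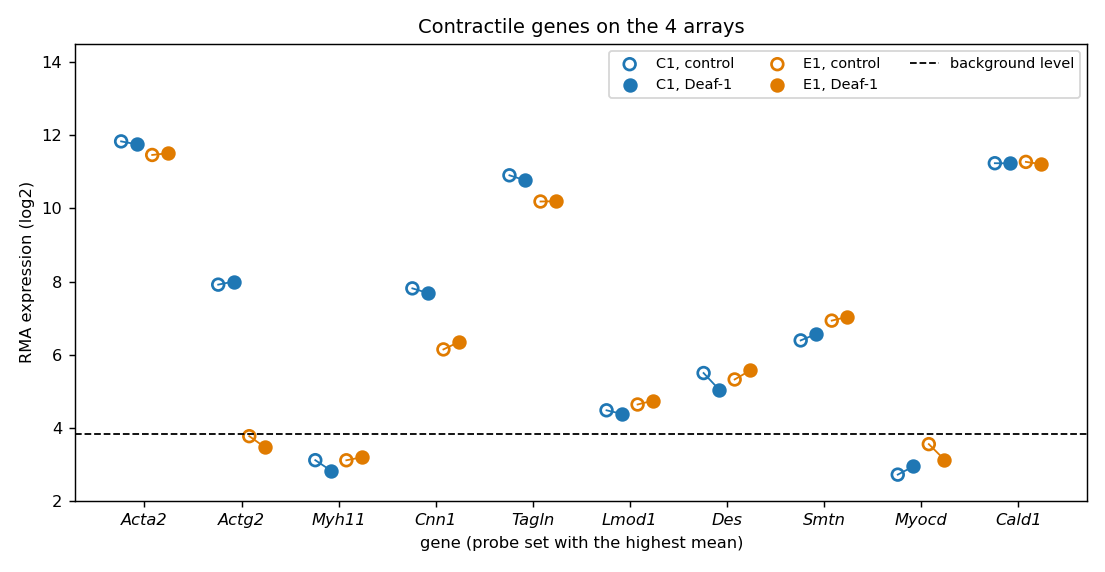
RMA expression (log2) of the leading probe set of each contractile gene (horizontal axis). Circles are arrays, blue for C1 and orange for E1, open for the control and filled for the Deaf-1 retrovirus, a short line connects each pair from a clone, and the dashed line marks the background at 3.83. Actg2 lies near 8 in clone C1 and below background in clone E1, while Cald1 stays between 11.21 and 11.27.

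The thin filament actins differed between the clones by very different amounts. Actg2 encodes enteric gamma-actin, the actin isoform of visceral smooth muscle. Its single probe set (1422340_a_at) read 7.91, 8.0, 3.77 and 3.47. Both C1 arrays were far above both E1 arrays, and the E1 arrays lay below the background level. The measured ratio of C1 to E1 was 17.7-fold with the control retrovirus and 23.2-fold with Deaf-1. Since the E1 values are at background, the ratios are better read as bounds, and against the background level Actg2 was at least 17.0-fold higher in C1 with the control retrovirus and at least 18.0-fold higher with Deaf-1.

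Acta2 encodes smooth muscle alpha-actin, the usual marker of myoepithelial cells and myofibroblasts. Its leading probe set (1416454_s_at) read 11.83, 11.75, 11.46 and 11.51. Both C1 arrays exceeded both E1 arrays, but by only 1.29-fold with the control retrovirus and 1.18-fold with Deaf-1. Over the control and Deaf-1 arrays of a clone, the mean was 11.79 ± 0.057 (SD, n = 2 arrays) in C1 and 11.49 ± 0.033 (SD, n = 2) in E1. Such an SD holds the change with Deaf-1 and is not a spread between replicates. The other Acta2 probe sets, 1456658_at and 1444105_at, lay below background on all 4 arrays, between 2.62 and 3.24. The reading of Acta2 thus rests on 1 probe set, whose suffix (_s_at) is the array maker's mark for probes that can match several transcripts.

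Upstream sequence of Acta2 is shown because the SRF element is the shared switch of these genes. RefSeq start regions (GRCm38.p6, 250 bases before to 50 after each gene's start) were at hand for 6 of the 10 genes, in 7 sequences: Acta2, Cnn1, Lmod1, Des, Smtn and Cald1, the last with 2 starts. The CArG box is 6 bases of A or T between CC and GG and reads the same on both strands. No member's region held a full CArG box, which was found in 1.63% of 32851 regions of the same length. Those regions leave out a whole chromosome, on which no member lies. Elements with 1 inner G or C were found in 8.5% of the 32851 regions and, among the members, at 2 places before the start of Acta2. Each is printed 5′ to 3′ on the strand of the gene (minus) within 30 bases, with the element in capitals. The first lies 84 to 75 bases before the start (chr19:34255438-34255467) and the second 34 to 25 bases before it (chr19:34255388-34255417). Distances are from the start used for that region, and the RefSeq span of the gene reaches farther upstream, to position 34255585, so that both elements lie inside that span.
Acta2 first element: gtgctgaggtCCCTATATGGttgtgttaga
Acta2 second element: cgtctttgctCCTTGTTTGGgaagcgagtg
The letters TTCG, the core that DEAF-1 binds, were searched on both strands and occurred in 44.7% of the 32851 regions. Among the members they were found once in the region of Acta2 and at 2 places in 1 of the regions of Cald1. Such matches describe letters in a window and do not show binding.

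Of the proteins that decorate the actin filament, Cnn1 and Tagln were higher in C1, like Actg2, and Lmod1 was not. Cnn1 encodes calponin, an actin-binding inhibitor of the myosin ATPase that marks differentiated smooth muscle. It (1417917_at) read 7.81, 7.69, 6.14 and 6.35. The C1 arrays again stood clear of the E1 arrays, and all lay above background. The ratio of C1 to E1 was 3.18-fold with the control retrovirus and 2.53-fold with Deaf-1. Over the control and Deaf-1 arrays of a clone, the mean was 7.75 ± 0.090 (SD, n = 2 arrays) in C1 and 6.24 ± 0.14 (SD, n = 2) in E1.

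Tagln encodes transgelin (SM22-alpha), an actin-bundling relative of calponin and an early marker of the smooth muscle lineage. Its only probe set (1423505_at) read 10.91, 10.77, 10.19 and 10.20. Both C1 arrays stood above both E1 arrays, and C1 exceeded E1 by 1.64-fold with the control retrovirus and 1.49-fold with Deaf-1. Both differences, of -0.72 and -0.57 (E1 minus C1, log2), were short of a 2-fold step.

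Cald1 encodes caldesmon, which binds actin, tropomyosin and myosin and is made as a smooth muscle and a widespread non-muscle form. It had 5 probe sets. The leading one (1424769_s_at) read 11.24, 11.23, 11.27 and 11.21, and its arrays overlapped between the clones with differences of 0.037 and -0.022. The probe sets 1424768_at (10.80, 10.65, 10.86 and 11.02) and 1424770_at (9.32, 9.24, 9.43 and 9.40) were marginally higher in both E1 arrays. The dimmer 1433147_at went the other way, with 5.88, 5.73, 5.10 and 5.53, and 1433146_at was above background on the Deaf-1 array of E1 alone. The probe sets of Cald1 thus disagree in direction, and none differed 2-fold between the clones with both retroviruses.

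Lmod1 encodes leiomodin, which nucleates actin filaments in smooth muscle. It (1427485_at) read 4.48, 4.38, 4.63 and 4.74, not far above background, and was higher in E1 by 1.12-fold with the control retrovirus and 1.29-fold with Deaf-1. The differences of 0.16 and 0.36 were small beside those of Actg2 and Cnn1.

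The members that anchor the filaments did not share the C1 excess. Smtn encodes smoothelin, a cytoskeletal protein of contractile smooth muscle. It (1452469_a_at) read 6.39, 6.56, 6.93 and 7.03, so that both E1 arrays exceeded both C1 arrays, by 1.46-fold with the control retrovirus and 1.39-fold with Deaf-1. Des encodes desmin, the muscle intermediate filament protein. At 1426731_at it read 5.50, 5.04, 5.32 and 5.57, with overlapping clones and differences of -0.18 and 0.53 (E1 minus C1). Its other probe set (1426732_at) was below background on all 4 arrays.

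The motor and the master coactivator were not measured above background. Myh11 encodes the smooth muscle myosin heavy chain, the most restricted marker of the lineage. Its leading probe set (1418122_at) read 3.11, 2.83, 3.11 and 3.19, and the other (1448962_at) lay between 2.83 and 3.15. Myocd encodes myocardin, the SRF coactivator of smooth and cardiac muscle. It read 2.72, 2.94, 3.55 and 3.13 at 1425808_a_at and 2.69, 2.64, 3.62 and 3.33 at 1425978_at. Both Myocd probe sets were higher in both E1 arrays than in the C1 arrays, but every value was below background, where a ratio cannot be read as a ratio of transcript. In these bulk RNA samples, fewer cells with a transcript and less transcript per cell cannot be told apart.

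In all, 2 of the 10 genes (Actg2 and Cnn1, both higher in C1) differed 2-fold or more between the clones with both retroviruses. Over all probe sets 1.64% did so, 0.775% higher in C1 and 0.864% higher in E1. At 1 probe set per gene, as for the members, 2.25% of 18193 genes did. The members were proposed with such differences in view, so nothing is read from that contrast. For 7 of the 10 leading probe sets the arrays of C1 and E1 did not overlap, 4 higher in C1 and 3 in E1. Among all probe sets 47.1% did not overlap, 24.3% higher in C1 and 22.8% in E1. At 1 probe set per gene, 9427 of 18193 did not overlap, 4700 higher in C1 and 4727 in E1. The median difference over the 10 was -0.089 with the control retrovirus and 0.083 with Deaf-1, beside -0.035 and 0.033 over all probe sets. The 2 members past 2-fold were thus not matched by a common shift of the 10.

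**Figure D2:**
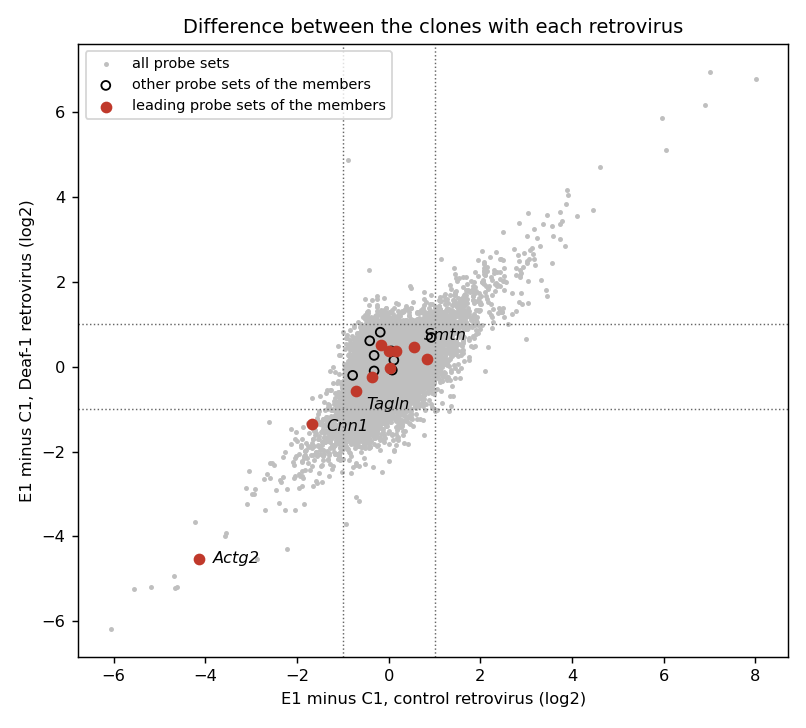
Difference between the clones (E1 minus C1, log2) with the control retrovirus on the horizontal axis and with the Deaf-1 retrovirus on the vertical axis, for all 45037 probe sets (grey), the leading probe sets of the 10 members (red) and their other probe sets (open circles); dotted lines mark 2-fold. Actg2 lies at -4.15 and -4.53 and Cnn1 at -1.67 and -1.34, beyond the lines on both axes, and the remaining members lie inside them.

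Whether Deaf-1 altered the contractile genes was asked by comparing Deaf-1-transduced with control cells over both clones. No member passed the test. None of the 10 leading probe sets, and none of all 19, reached an unadjusted p under 0.01 in limma's moderated test, where 0.0111% of all probe sets did, or under 0.05, where 0.433% did. With clone as a block, none of the 19 reached either threshold, against 0.0244% and 0.875% of all probe sets. The adjusted p from limma was 1 for each of them in both fits. The lowest unadjusted p of a leading probe set in limma's fit was 0.615 (Myh11) without the block and 0.383 (Smtn) with it. The median change over the 10 genes was -0.048 (log2, Deaf-1 minus control), against -0.0043 over all probe sets.

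For the genes that separated the clones, the change with Deaf-1 was small beside the difference between the clones. Actg2 had a change of 0.085 in C1 and of -0.30 in E1, where it lay below background, and its mean change of -0.11 had a 95% interval of -0.57 to 0.36 with clone as a block. Without the block the interval ran from -5.50 to 5.29, because the distance between the clones then counts as spread. The change of Cnn1 was -0.13 in C1 and 0.20 in E1 (mean 0.038, interval -0.41 to 0.48 with the block). That of Acta2 was -0.080 in C1 and 0.047 in E1, and the interval of its mean change of -0.017 was -0.41 to 0.38 with the block. Further quantile normalization and cyclic loess gave Acta2 a mean change of the other sign, 0.020 and 0.019. That of Tagln was -0.14 in C1 and 0.0080 in E1 (mean -0.064, interval -0.46 to 0.34 with the block). Such intervals hold the changes, of either sign, that remain compatible with these 4 arrays. They are not a limit of detection, and the values do not show that the retroviruses act alike.

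Of the remaining members, Smtn had positive changes in each clone, 0.17 in C1 and 0.10 in E1 (mean 0.14, interval -0.25 to 0.53 with the block). Cald1 at its leading probe set had negative changes in each, -0.0028 in C1 and -0.062 in E1. Its Deaf-1 and control arrays did not overlap, as for 18.9% of all probe sets, and its mean change of -0.032 was within the interval of -0.42 to 0.36. Des had the largest change in a single clone among the leading probe sets, -0.45 in C1, with 0.25 in E1. Lmod1 differed by -0.098 in C1 and 0.11 in E1. Below background, Myh11 differed by -0.28 and 0.084 and Myocd by 0.22 and -0.42. The sign of the change was the same in both clones for 2 of the 10 genes, against 39.3% of all probe sets, and opposite for 8, against 58.9%. Over all 18193 genes, at 1 probe set each, it was the same for 6880 and opposite for 11069.

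For 6 of these 8 genes (Acta2, Myh11, Cnn1, Tagln, Lmod1 and Des) the measured value was lower with Deaf-1 in C1 and higher in E1. The share of all probe sets with that pattern was not counted, so it is not read as a trait of the members. Over all 45037 probe sets the change in C1 correlated with that in E1 at -0.31. The array medians went the same way, from 3.83 to 3.77 with Deaf-1 in C1 and from 3.77 to 3.87 in E1, and the part of this in the opposite changes was not tested. After median centring, which sets the medians equal, 6 of the 10 genes had opposite signs, and after further quantile normalization or cyclic loess 8 did. The share of all genes under these settings was not counted.

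**Figure D3:**
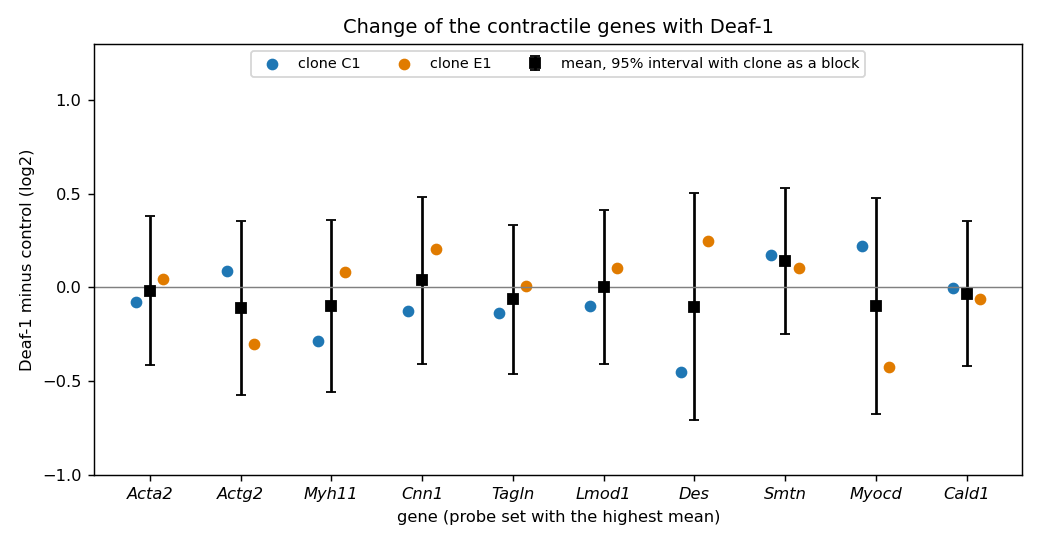
Change with Deaf-1 (Deaf-1 minus control, log2) of the leading probe set of each contractile gene in clone C1 (blue) and clone E1 (orange), with the mean over the clones and its 95% interval from limma's fit with clone as a block (black squares and bars). Every interval spans 0, and the means lie between -0.11 and 0.14.

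The everyday relatives of the members were measured beside them. Of the other actins, Actb, the cytoplasmic beta-actin, read 13.13, 13.14, 13.17 and 13.07, and Actg1, the cytoplasmic gamma-actin, 12.60, 12.45, 12.26 and 12.30. Acta1, the skeletal muscle actin, stayed between 4.19 and 4.64, and Actc1, the cardiac actin, was below background. Actg1, like Acta2, was somewhat higher in C1 (differences of -0.34 and -0.15), and no actin but Actg2 differed 2-fold. Of the calponin family, Cnn2 had differences of -0.31 and -0.24 and Cnn3 of 0.11 and 0.17. Tagln2, the broadly expressed relative of Tagln, was higher in E1 by 0.46 and 0.59, opposite to Tagln, and Tagln3 by 0.26 and 0.52.

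Other thin filament and dense body proteins formed a list of 17 measured genes. The arrays of the clones did not overlap for 11 of them, 5 higher in C1 and 6 in E1, beside 9427 of all 18193 genes. At 1 probe set per gene, 2.25% of all genes were 2-fold apart with both retroviruses. Of 17 measured genes in this list, 1 differed 2-fold with both retroviruses, namely Csrp2, a LIM-domain protein of smooth muscle, which read 9.75, 9.67, 8.10 and 7.96 (3.14-fold and 3.26-fold higher in C1). Flnc, the muscle filamin, was higher in C1 by 1.83-fold and 1.60-fold, and Tpm2, a muscle tropomyosin, by 1.35-fold and 1.59-fold. Tns1, a tensin of focal adhesions, was higher in E1 by 1.64-fold and 1.92-fold. The relatives of leiomodin (6 genes) and of smoothelin and desmin (5 genes) held no gene 2-fold apart with both retroviruses. Tmod3, a broadly expressed tropomodulin, had differences of -0.24 and -1.02 (E1 minus C1, log2), and Tmod1 of 0.053 and -0.50. Nes, the intermediate filament protein of progenitor cells, differed by -0.27 and 0.044, and Smtnl2 by -0.011 and 0.12. Vim, the intermediate filament protein of mesenchymal cells, was higher in E1 by 0.58 and 0.66.

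Among all 18193 genes 2.25% passed 2-fold with both retroviruses, and among 17 genes of myosin and its regulators 1 did. That gene was Myl6, an essential myosin light chain, whose only singly named probe set read 7.41, 7.38, 6.38 and 6.33 (2.04-fold and 2.08-fold). Myl9, the smooth muscle regulatory light chain, was 1.59-fold and 1.66-fold higher in C1. Mylk, the kinase that switches on smooth muscle myosin, read 4.29, 5.02, 3.42 and 3.58, so that it lay above background in C1 alone. Ppp1r12a, the targeting subunit of the opposing phosphatase, was 1.7-fold and 2.37-fold higher in C1. The non-muscle heavy chains Myh9 and Myh10 differed by no more than 0.17 in size. Myh14, a dimmer non-muscle heavy chain, had differences of -0.34 and 0.46 (E1 minus C1, log2).

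Of 23 measured genes for SRF and the factors that work with or against it, 1 was 2-fold or more higher in C1 and 2 were in E1. Over all 18193 genes, 2.25% were 2-fold apart in either direction. Fhl1, a LIM-only cofactor of striated and smooth muscle, read 8.28, 8.43, 6.45 and 6.45 (3.54-fold and 3.94-fold higher in C1). Its relative Fhl2, an SRF-interacting cofactor, went the other way with 7.78, 7.84, 9.39 and 9.43 (3.05-fold and 3.03-fold higher in E1). Nkx2-5, a cardiac homeobox factor that can cooperate with SRF, read 4.27, 4.24, 6.41 and 6.59 (4.42-fold and 5.12-fold higher in E1). Prrx1, a mesenchymal homeobox factor, was 2.14-fold and 1.90-fold higher in C1. Srf itself read 6.52, 6.54, 6.14 and 5.91, and the myocardin relatives Mrtfa and Mrtfb were higher in C1, with differences of -0.73 and -0.48 and of -0.32 and -0.85 (E1 minus C1, log2).

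Of 31 other measured products of smooth muscle or myofibroblasts, 3 were 2-fold or more higher in C1 and 1 in E1. The small heat shock proteins parted. Hspb7 read 6.30, 6.0, 4.18 and 4.53 and was 4.36-fold and 2.78-fold higher in C1, and Hspb1, which binds actin, was 2.16-fold and 2.10-fold higher in C1. Hspb6, a relaxant phosphoprotein of smooth muscle, was 2.00-fold and 2.21-fold higher in E1. Aoc3, an amine oxidase abundant in smooth muscle and fat, was 2.02-fold and 2.72-fold higher in C1. Over these 8 lists together, 9 of 107 genes differed 2-fold with both retroviruses, 6 higher in C1 and 3 in E1. Among all 18193 genes, also at 1 probe set per gene, 2.25% did so. These lists too were chosen with earlier results of these data known, so nothing is read from that contrast. None of the 107 reached p under 0.01 in limma's comparison of Deaf-1 with control, with or without the block. At p under 0.05 only Tmod4, a tropomodulin of striated muscle below background on all arrays, passed (-0.44, or 1 of 107 in either fit).

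**Figure D4:**
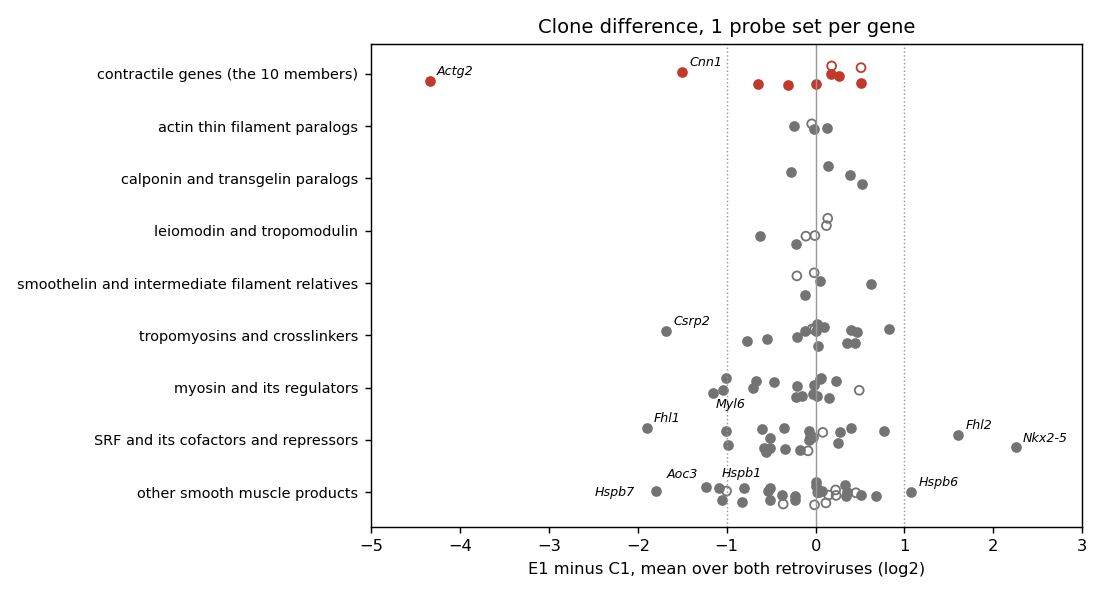
Difference between the clones (E1 minus C1, log2, mean over both retroviruses) for the 10 contractile genes (red) and for genes of 8 related lists (grey), 1 probe set per gene, with open circles for genes above background on fewer than 2 arrays; dotted lines mark 2-fold and names mark genes past it with both retroviruses. Actg2 is drawn at its measured value of -4.34, of which the E1 side is below background, and the 9 named genes of the related lists lie on both sides of 0.

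The cell type that carries the members was checked by marker lists. The cells are labelled mammary epithelial, and its epithelial markers were partly absent. Luminal Krt8 and Krt18 ranged from 3.46 to 4.01 and from 2.75 to 3.51, and Cdh1, the epithelial cadherin, from 2.22 to 2.42, all at or near background. Epcam, an epithelial adhesion molecule, ranged from 5.81 to 6.33, the tight junction protein Cldn3 from 5.19 to 5.88, Krt19 from 4.37 to 4.64 and Muc1 from 4.24 to 4.71, all above background on every array. Krt19 and Muc1 were not far above it. Of 22 measured luminal markers 13 were below background on all 4 arrays and 6 above it on all. Of all 18193 genes, also at 1 probe set each, 5668 were below on all 4 arrays and 11005 above on all. The progesterone receptor Pgr was higher in C1 (7.19 and 7.50, against 5.23 and 4.63), as was the oestrogen receptor Esr1 (mean difference of -1.05), and Krt7 was above background in E1 alone (4.10 and 4.41). Basal and myoepithelial markers were also incomplete. Krt14 stayed between 3.37 and 3.72 and Krt17 between 2.48 and 3.0, below background on every array. Krt5 (4.45 to 4.74) and Trp63, the basal lineage factor (3.87 to 4.43), lay above background on every array, though not far above it. Oxtr, the oxytocin receptor of myoepithelial cells, was above background on the Deaf-1 array of E1 alone. Of 19 measured basal markers 11 were above background on all arrays, a share close to that of all genes. Among the basal markers Id4, Cdh3 and Snai2 were higher in C1 (mean differences of -1.05, -0.97 and -0.68) and Egfr in E1 (0.77). None of these belongs to myoepithelial cells alone. The contractile genes are therefore described here by their names, and not as evidence of a myoepithelial identity.

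Of the cell type marker lists, that of fibroblasts was the most complete, with 15 of 17 genes above background on all 4 arrays. Of all genes, at 1 probe set each, 11005 of 18193 were. The fibroblast genes above background included Col1a1 (12.49, 12.55, 12.76 and 12.82) and Col1a2. The log2 summed level of the fibroblast list ran from 15.33 to 15.36 in C1 and from 15.47 to 15.56 in E1. Single fibroblast genes parted the clones, with Lum 6.52 and 6.94 in C1 against 4.26 and 3.57 in E1, and Dpt 4.71 and 5.42 against 8.45 and 8.44. S100a4, a fibroblast protein, and Prrx1 were higher in C1, with a mean difference of -1.01 each. Of 11 mural cell markers 3 were above background on all arrays, among them Pdgfrb, which was higher in E1 by 0.97 and 0.70, and Ndufa4l2, by 1.0 and 0.74. The mean difference was 0.38 for Anpep and -0.38 for Mcam. Rgs5, Kcnj8 and Notch3, which mark pericytes, were below background. The log2 summed level of the mural list was 9.36 and 9.50 in C1 and 10.18 and 10.15 in E1, with 5 of the 11 genes below background on all arrays. Cspg4, a further mural marker, had a mean difference of -0.23. No gene of 20 for striated muscle was above background on all arrays, and Myod1 and Myog were below it throughout. The 4 widest differences among those above background on at least 2 arrays were small, with means of 0.51 for Ckm, 0.26 for Mylpf, 0.14 for Mb and 0.035 for Tnni2. Of 9 endothelial and blood genes 3 were above background on all arrays, while Pecam1, Cdh5 and Ptprc were on none. Tek was higher in E1 by 0.91 and 0.35, Cd3e by 0.052 and 0.39, and Kdr differed by 0 and -0.043. Of 7 fat cell genes, Fabp4 (2.57, 3.77, 10.59 and 10.56) and Pparg (3.16, 2.95, 6.62 and 6.53) were high in E1 and at background in C1, while Adipoq was below background on all arrays and Retn differed by a mean of 0.18. The part of these marker differences in those of the contractile genes was not tested.

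**Figure D5:**
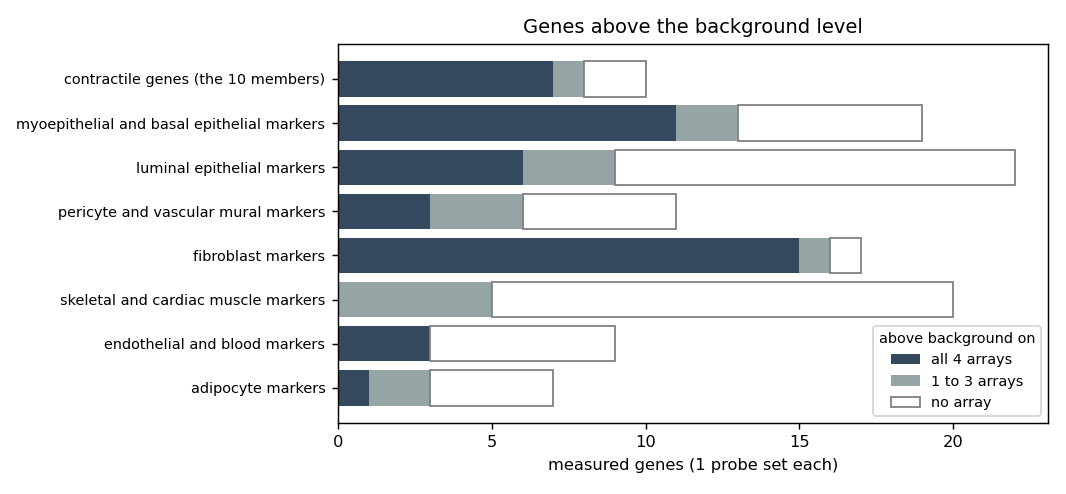
Number of measured genes per list (horizontal axis, 1 probe set per gene) above the background level of 3.83 on all 4 arrays (dark), on 1 to 3 arrays (grey) or on none (white). Of the cell type lists, fibroblast markers are the most complete (15 of 17 on all arrays), and 13 of 22 luminal markers are on no array. Of all 18193 genes, not drawn, 11005 are above it on all arrays.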

How the data were processed

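RNA from 4 cultures, each clone with either retrovirus, was read on 1 Affymetrix mouse genome array apiece. The deposited log2 values had been made by the authors with RMA. The submitters' processing notes name RMA and limma, both without versions. No further normalization went into the reported values. Of 45101 probe sets, 64 controls were left out, and 34945 had 1 gene symbol, 932 several and 9160 none. Only those with 1 symbol were named.

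The effect of Deaf-1 was tested with limma 3.58.1 (R 4.3.3; lmFit and eBayes, two-sided), taking the clones as replicates as in the study, and p-values were adjusted by Benjamini and Hochberg over 45037 probe sets. There were 2 residual degrees of freedom, and 1 with clone as a block. The clone letter of the labels pairs the arrays, and deviations from the group means correlated at 0.54 within a clone. P-values measure only the spread between these arrays, whose number limits the precision. The fit was tested on simulated data with independent noise on each array. The pairing of arrays by clone was not simulated, so that test does not cover it.

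Members and the 15 other lists were chosen with earlier results of these data known. For each list gene the probe set with the highest mean was used. Some list genes were not analysed here, and counts are over the genes measured. Named were all members and their paralogs, the 5 probe sets nearest to Acta2 in pattern, and from each list up to 4 genes with the widest mean clone difference among those above background on at least 2 arrays. Defining cell type markers, Srf and Tmod4 were named after their values were seen. Alternatives covered the block, single arrays left out, filters at background and at a mean of 6, quantile, median and cyclic loess normalization, an intensity trend, a robust prior, the choice of probe set and a 1.5-fold threshold.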

Additional observations from a re-analysis of the deposited data

Results flagged for a closer look

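In 8 contractile genes the change with Deaf-1 had opposite signs in the clones, where 58.9% of all probe sets did. The difference between the changes was not tested, since each clone has 1 array per retrovirus. The change in E1 minus that in C1 (log2, leading probe set) was 0.13 for Acta2, 0.33 for Cnn1, 0.14 for Tagln, 0.20 for Lmod1 and 0.70 for Des. It was 0.37 for Myh11 and -0.65 for Myocd, both below background, and -0.39 for Actg2, which was below background in E1.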

How the results depend on the processing

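The count of contractile genes at p under 0.01 was 0 under every alternative run, also with clone as a block (replicate block, 0 of 10) and with any probe set of a gene. The median change of the 10 genes stayed below 0, from -0.069 to -0.0089, and the number 2-fold apart between the clones was 2 throughout. The count over all probe sets was 5, and moved to 11 with the block, 2 above background, 1 at a mean of 6 or more and 25 with an intensity trend. The block changed no call of a member. The sign of 5 of 73 changes turned, namely Acta2 to 0.020 after further quantile normalization and 0.019 after cyclic loess, Lmod1 to -0.017 after median centring and -0.0098 after cyclic loess, and Cald1 to 0.0037 after cyclic loess. The cause was not tested. A fit without 1 array compares unequal mixes of the clones and carries their difference. Such fits gave no member with p under 0.01, a median from -0.15 to -0.025 and 2 to 47 probe sets in all (control array left out, 2 for E1 and 3 for C1; Deaf-1 array left out, 15 for E1 and 47 for C1). Changes ranged from -0.20 to 0.17 for Acta2, -2.37 to 2.16 for Actg2, -0.28 to 0.082 for Myh11, -0.80 to 0.87 for Cnn1, -0.42 to 0.29 for Tagln, -0.18 to 0.19 for Lmod1, -0.37 to 0.16 for Des, -0.13 to 0.41 for Smtn, -0.52 to 0.32 for Myocd and -0.051 to -0.014 for Cald1. Myh11 and Myocd were left out by the filter at background, and Actg2, Lmod1 and Des too by that at a mean of 6. Directions of genes at background are not resolved by these arrays.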

Other observations

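The probe sets whose values over the 4 arrays, centred on their means, lay closest to those of Acta2 (Euclidean distance, log2) belonged to Snapc2 (0.013), Lmbrd1 (0.020), Smarca4 (0.021), Tcf3 (0.021) and Ip6k1 (0.026). How many other probe sets lie nearly as close was not counted.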
